A study of Mus musculus with 6 samples.

Results

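Krüppel-like factors are zinc finger transcription factors, and 9 genes of this family were followed in mouse mast cells 4 h after ionomycin: Klf2, Klf3, Klf4, Klf6, Klf7, Klf9, Klf10, Klf11 and Klf13. They were taken by symbol, as the probe sets that the platform annotation assigns to 1 gene only. Each had 1 probe set, so the 9 members are 9 of 30102 genes measured. The cells were mast cells matured in culture from C57BL/6J femur marrow (BMMCs), grown for 6 weeks with interleukin 3 and stem cell factor. The ionomycin group received 1 µg/mL ionomycin, an ionophore that carries calcium across membranes, in Tyrode's buffer for 1 h, then washes and 3 h in culture medium. The naive group received the buffer without ionomycin and the same 3 h in medium. Each group had 3 whole-transcript Affymetrix arrays of total RNA, numbered 1 to 3 in both groups. The labels do not give the number of mice or cultures behind the replicates. The p-values therefore set a difference only against the scatter of these samples, which may be technical, and do not extend to mice or cultures. Since ionomycin lets calcium in without any receptor, the design is a model of calcium signalling and not of IgE receptor engagement.

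Proteins of this family carry C2H2 zinc fingers at their carboxyl end and bind GC-rich and CACCC sequences, as the related Sp factors do, while their amino-terminal parts recruit different partners. By those partners the family is usually divided into mostly activating members (here Klf2, Klf4, Klf6 and Klf7), members that repress through the corepressor CtBP (here Klf3) and members that bind the corepressor SIN3A (here Klf9, Klf10, Klf11 and Klf13). Several are immediate or delayed early genes in other cells. Klf2 and Klf4 are transcribed through the kinase ERK5 and the factor MEF2 in endothelium and T cells, Klf6 responds to injury and inflammatory stimuli, Klf9 to glucocorticoids, and Klf10 to transforming growth factor β.

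All 9 members gave signals above background, a log2 level of 6.05 set as the 95th percentile of 1771 chemosensory receptor genes, and 0 of 9 passed the test between the groups (limma, Benjamini-Hochberg adjustment over 30102 genes, threshold 0.05). Over all genes 0.349% passed, and 0.505% with the replicate number as a block, where again 0 members passed. Before adjustment, at a limma p under 0.05, 3 members were higher (Klf4, Klf6 and Klf9) and 0 were lower, against 10.2% of all genes higher and 5.44% lower. For 4 members (Klf2, Klf4, Klf6 and Klf9) every ionomycin array lay above every naive array. The groups did not overlap for 26.2% of all genes (18.9% with ionomycin higher), and for 30.2% of the 19221 genes above background. After centring every array on its median, Klf2 and Klf9 overlapped and 2 members (Klf4 and Klf6) did not, against 22.3% of all genes. The clearest separation was that of Klf6, with a 1.32-fold higher signal after ionomycin (95% interval 1.17 to 1.49, limma adjusted p = 0.0999). The interval is that of a single gene and is not adjusted for the number of genes. Klf9 had the largest difference of the 9, at 1.38-fold (1.05 to 1.81, adjusted p = 0.276).

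In both groups the replicate 1 array lay apart from the others. On the leading principal component (52.6% of the variance) these arrays were at -21.2 (ionomycin) and -48.0 (naive), and the other 4 were between 13.0 and 21.9. Correlations between arrays were 0.980 to 0.998. Mast cell markers gave high signals: 9 of 10 marker genes had a probe set of their own and all 9 were above background, with Cpa3 and Fcer1a at group means between 13.19 and 14.25. Background alone does not set cell types apart, since 9 of 10 macrophage markers were above it too. The summed linear signal in ionomycin arrays was 80934 to 82113 for mast cell and 3361 to 4597 for macrophage markers. In naive arrays it was 84433 to 86314 and 3049 to 5567. Of 5 markers of basophils, a related cell type, 2 were high in replicate 1 of both groups and the other 3 were not. The protease genes Mcpt8 and Prss34 had log2 signals of 10.60 and 10.70 in ionomycin replicate 1, against 8.60 to 9.14 in ionomycin replicates 2 and 3. In naive replicate 1 they had 10.36 and 10.35, against 8.70 to 9.20 in naive replicates 2 and 3. The interleukin 3 receptor gene Il3ra was lower in replicate 1 than in the mean of the other arrays, by a log2 difference of -0.18 in the ionomycin and -0.48 in the naive group. For Cd200r3 this difference was -0.02 (ionomycin) and 0.14 (naive), and for Itga2 -0.08 (ionomycin) and 0.06 (naive). Macrophage markers also differed between replicates. Cd68 was lower in replicate 1 than in the mean of the other arrays, by a log2 difference of -0.75 (ionomycin) and -1.44 (naive). Mrc1 was lowest in replicate 3 of both groups, at 6.55 (ionomycin) and 6.33 (naive). So were Adgre1, Csf1r, C1qa, C1qb and Marco, but not C1qc, Cd14 and Vsig4. The summed linear signal of the 5 basophil markers ran from 3865 to 5990 in ionomycin and from 4157 to 5938 in naive arrays, with the highest value of each group in replicate 1, where Mcpt8 and Prss34 were high, and only Itga2 below background. In bulk RNA, fewer cells of a type and less RNA per cell cannot be told apart. The part of such cells in the values of the Krüppel-like factors was not tested, and each member is given with and without the replicate 1 arrays. For 8 of the 9 members, all but Klf10, the highest of the 6 arrays was a replicate 1 array. It was of the ionomycin group for Klf2, Klf4, Klf6, Klf7, Klf9 and Klf13 and of the naive group for Klf3 and Klf11. The share of all genes with this pattern was not counted, so it is not read as a trait of these members.

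**Figure D1:**
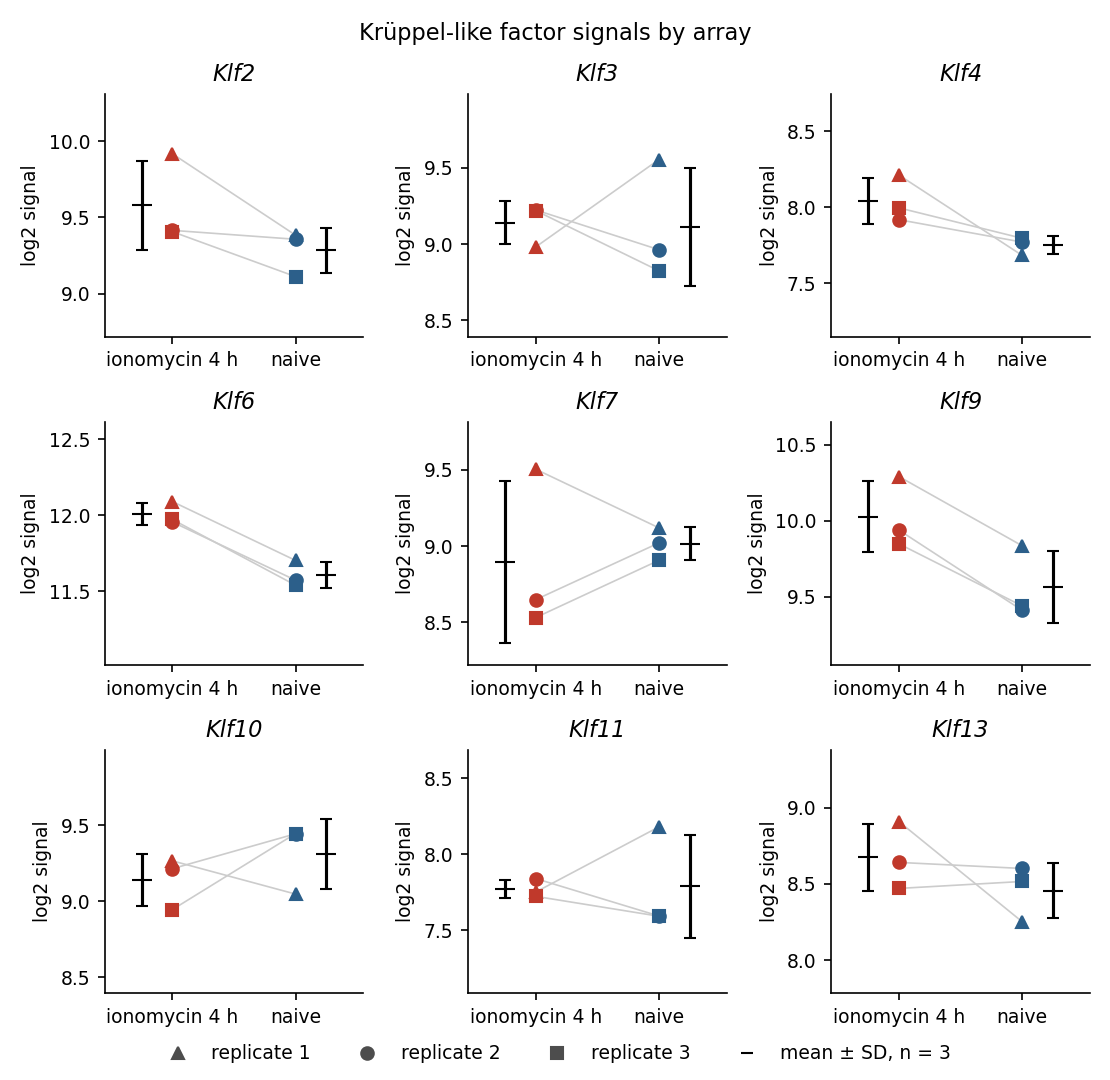
Log2 signal of the 9 Krüppel-like factor genes in each array (y axis, the same span in each panel), with ionomycin 4 h left of naive, lines joining the same replicate number and bars for mean ± SD (n = 3 each). The groups are separate for Klf2, Klf4, Klf6 and Klf9, by 0.252 for Klf6, 0.122 for Klf4, 0.0226 for Klf2 and 0.0124 for Klf9, and a replicate 1 array (triangle) is the highest for every gene except Klf10; after centring the arrays only Klf4 and Klf6 stay separate.

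The promoters of the 4 members whose groups did not overlap are shown because these genes share that pattern and so that motifs of activation-linked factors can be compared between them. Groups did not overlap for 26.2% of all genes, and Klf2 and Klf9 overlapped after the arrays were centred, so the choice does not mark these members as responding genes. Sequences are from RefSeq on build GRCm38.p6, 300 bases each in the direction of the gene, with 250 before the annotated start. Capitals mark the letters of 5 motifs searched on both strands: the MEF2 site, the NFAT core GGAAA, the AP-1 site TGANTCA, the core TGACG of the cAMP response element, and the EGR site GCGNGGGCG, which can overlap the GC box GGGCGG.
Klf2 (chr8:72318812-72319111, plus strand): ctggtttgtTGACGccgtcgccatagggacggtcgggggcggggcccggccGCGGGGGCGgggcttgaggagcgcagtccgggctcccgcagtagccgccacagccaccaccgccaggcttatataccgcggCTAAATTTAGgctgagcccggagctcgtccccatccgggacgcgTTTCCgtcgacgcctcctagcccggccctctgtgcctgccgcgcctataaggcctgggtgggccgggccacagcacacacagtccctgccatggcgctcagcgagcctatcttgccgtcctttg
Klf4 (chr4:55532426-55532725, minus strand): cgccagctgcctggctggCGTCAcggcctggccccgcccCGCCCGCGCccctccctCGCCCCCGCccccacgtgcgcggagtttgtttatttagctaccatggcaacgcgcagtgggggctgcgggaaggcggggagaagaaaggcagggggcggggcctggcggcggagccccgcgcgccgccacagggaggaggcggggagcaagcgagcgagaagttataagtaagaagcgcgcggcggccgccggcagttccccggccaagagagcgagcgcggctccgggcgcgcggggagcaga
Klf6 (chr13:5861239-5861538, plus strand): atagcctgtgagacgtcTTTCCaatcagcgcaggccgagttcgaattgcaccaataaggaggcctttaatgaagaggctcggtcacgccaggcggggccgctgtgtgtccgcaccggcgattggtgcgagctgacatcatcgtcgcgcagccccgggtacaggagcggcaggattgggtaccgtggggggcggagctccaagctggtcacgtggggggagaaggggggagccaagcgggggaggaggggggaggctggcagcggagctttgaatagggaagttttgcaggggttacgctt
Klf9 (chr19:23140976-23141275, plus strand): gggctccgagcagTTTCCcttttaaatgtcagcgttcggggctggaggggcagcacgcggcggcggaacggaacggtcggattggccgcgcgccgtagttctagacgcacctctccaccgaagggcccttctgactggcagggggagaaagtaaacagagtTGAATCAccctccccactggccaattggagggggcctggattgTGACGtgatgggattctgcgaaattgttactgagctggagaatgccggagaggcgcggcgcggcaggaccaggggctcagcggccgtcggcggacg

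Of the 9 members 8 matched a promoter in the table, and Klf10 did not. The Klf2 promoter held the only MEF2 site among the 8, at -118 from the start, and 0.559% of 32544 promoters of this length hold one. MEF2 is a calcium- and ERK5-regulated factor. Klf9 held the only AP-1 site, at -89 (7.79% of all promoters), and a TGACG core at -46. The NFAT core was found in Klf2, Klf6 and Klf9 (3 of 8, against 61.5% of all promoters), and the TGACG core in 5 of 8 (20.9%). EGR sites were found in Klf2, Klf3 and Klf4 (5.6% of all promoters). The family's own binding letters were common: the GC box stood in 7 of 8 (35.9%) and the CACCC box in 5 of 8 (57.7%). The 8 promoters were 58.3% to 77.7% G and C, against a median of 53.0% over all promoters. The full cAMP response element TGACGTCA, the CArG box of serum response factor, the NF-kB site, the paired heat shock unit GAANNTTC, the glucocorticoid hexamer AGAACA and the TATA box TATAAA had no match in any of the 8 windows, against 1.8%, 1.64%, 8.49%, 7.89%, 18.9% and 13.6% of all promoters in that order. The CACGTG E-box was found in Klf4, Klf6 and Klf11 (7.17%), and the CCAAT box in Klf6, Klf9, Klf11 and Klf13 (37.4%). A match describes the letters in a window and not binding.

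Among the activating members, Klf6 (probe set TC1300000028.mm.1) encodes a factor first isolated through its binding to a core promoter element, and is known as an early gene of wounding and of macrophage activation. Its log2 signals were 12.09, 11.95 and 11.97 in ionomycin arrays 1, 2 and 3, against 11.70, 11.57 and 11.54 in naive arrays. All 3 ionomycin arrays were above all 3 naive arrays, and the arrays of a group differed little. The difference was 0.40 ± 0.07 on the log2 scale (SE, limma, 95% interval 0.23 to 0.57, adjusted p = 0.0999), and at the 3 replicate numbers it was 0.39, 0.38 and 0.43. Without both replicate 1 arrays it was 0.41 (0.26 to 0.56) and passed the test (limma adjusted p = 0.0343), in a fit that called 1.41% of all genes higher. Of all genes 5.87% had a larger absolute difference.

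Klf2, a factor of lymphocyte quiescence and of the endothelial response to flow, had log2 signals of 9.92, 9.42 and 9.41 in ionomycin arrays, against 9.38, 9.36 and 9.11 in naive arrays. Ionomycin replicate 1 was high and the other 2 ionomycin arrays lay just above the naive arrays. The difference was 0.30 ± 0.16 (SE, limma, 95% interval -0.09 to 0.68, adjusted p = 0.385), and without both replicate 1 arrays it was 0.18 (-0.06 to 0.41, limma adjusted p = 0.324). Klf4, a pluripotency factor that also takes part in monocyte differentiation, had 8.21, 7.92 and 7.996 in ionomycin arrays, against 7.68, 7.77 and 7.80 in naive arrays. The groups were separate, again with ionomycin replicate 1 as the highest. Klf4 differed by 0.29 ± 0.09 (SE, limma, 0.07 to 0.51, adjusted p = 0.241), and by 0.17 (0.02 to 0.33, adjusted p = 0.196) without both replicate 1 arrays. For both genes the value at replicate 1 (0.53 each) was higher than at replicates 2 and 3 (0.06 and 0.30 for Klf2, 0.15 and 0.20 for Klf4).

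Klf7, a widely expressed member best known from neurons and fat cells, had 9.51, 8.65 and 8.53 in ionomycin arrays, against 9.12, 9.02 and 8.91 in naive arrays. Its ionomycin replicate 1 array was above every naive array and its other ionomycin arrays were below every naive array. The difference over all arrays was -0.12 ± 0.26 (SE, limma, 95% interval -0.74 to 0.50, adjusted p = 0.821). At the replicate numbers it was 0.39, -0.37 and -0.38, and without both replicate 1 arrays -0.37 (-0.57 to -0.18, limma adjusted p = 0.0754). The spread of the 3 ionomycin arrays was 0.53 (SD), the widest of any member in either group.

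**Figure D2:**
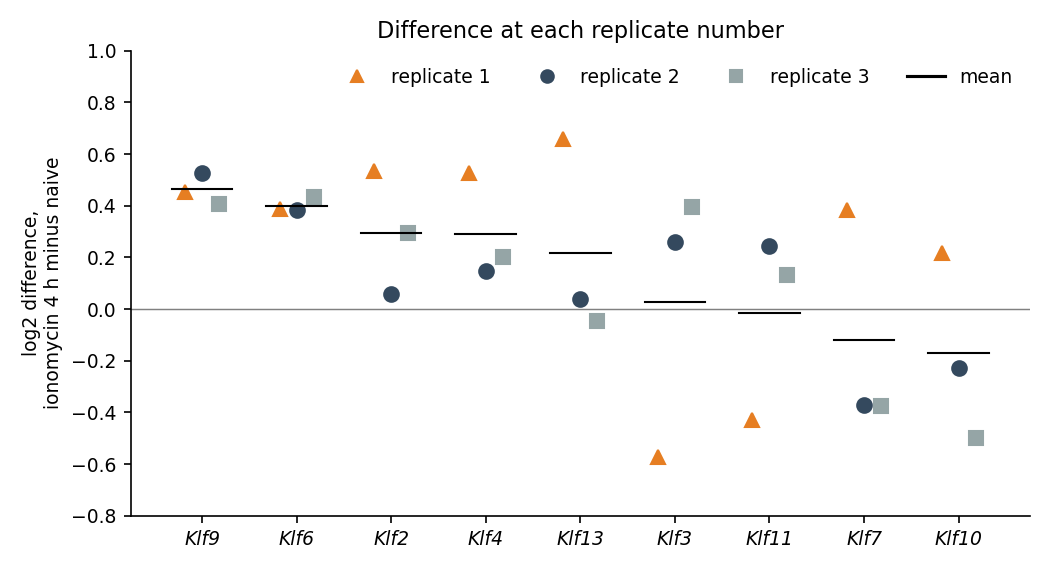
Log2 difference, ionomycin 4 h minus naive (y axis), for each of the 9 genes (x axis, in order of the mean difference) at replicate 1, 2 and 3, with a line for the mean. Klf9 and Klf6 have like differences at all 3 numbers (0.41 to 0.53 and 0.38 to 0.43), whereas for Klf3, Klf11, Klf7 and Klf10 the sign at replicate 1 is opposite to that at replicates 2 and 3.

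Klf3, which silences genes through CtBP and acts in B cell and erythroid differentiation, had 8.98, 9.22 and 9.22 in ionomycin arrays, against 9.55, 8.96 and 8.82 in naive arrays. Naive replicate 1 was the highest array and the other naive arrays the lowest. Its difference was 0.03 ± 0.20 (SE, limma, 95% interval -0.45 to 0.50, adjusted p = 0.950). At the replicate numbers it was -0.57, 0.26 and 0.40, and without both replicate 1 arrays 0.33 (0.15 to 0.51, limma adjusted p = 0.0870).

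Of the members that bind SIN3A, Klf9 (probe set TC1900000373.mm.1), a gene induced by glucocorticoid and thyroid hormones in many tissues, had 10.29, 9.94 and 9.85 in ionomycin arrays, against 9.84, 9.41 and 9.44 in naive arrays. Replicate 1 was the highest array of each group, by 0.40 (ionomycin) and 0.41 (naive) over the mean of the other arrays. The groups therefore nearly met, at a gap of 0.0124, although the difference at each replicate number was close to the mean. It was 0.46 ± 0.16 (SE, limma, 95% interval 0.07 to 0.85, adjusted p = 0.276), with 0.45, 0.53 and 0.41 at the 3 numbers. Without both replicate 1 arrays it was 0.47 (0.31 to 0.63) and passed (limma adjusted p = 0.0306). With the difference between replicate 1 and the other numbers taken out as a block of 2 levels, Klf6 (limma adjusted p = 0.0161) and Klf9 (0.0143) passed and the other 7 members did not, in a fit that called 2.25% of all genes higher.

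Klf10, also called TGFβ-inducible early gene 1, had 9.27, 9.22 and 8.95 in ionomycin arrays, against 9.05, 9.44 and 9.45 in naive arrays. Naive replicate 1 was lower than ionomycin replicates 1 and 2, and the other naive arrays were the highest. The difference was -0.17 ± 0.14 (SE, limma, 95% interval -0.51 to 0.17, adjusted p = 0.550), and -0.36 (-0.61 to -0.12, adjusted p = 0.128) without both replicate 1 arrays. Klf11, its closest relative and a regulator of insulin transcription, had 7.75, 7.84 and 7.72 in ionomycin arrays, against 8.18, 7.60 and 7.59 in naive arrays. The ionomycin arrays lay within the range of the naive arrays. Klf11 differed by -0.02 ± 0.17 (SE, limma, -0.42 to 0.38, adjusted p = 0.963), and by 0.19 (0.02 to 0.36, adjusted p = 0.193) without both replicate 1 arrays. Klf13, known in T cells as a late activator of the chemokine gene Ccl5, had 8.91, 8.64 and 8.47 in ionomycin arrays, against 8.25, 8.60 and 8.52 in naive arrays. The separation at replicate 1 (0.66) was not seen at replicates 2 and 3 (0.04 and -0.05). Klf13 differed by 0.22 ± 0.14 (SE, limma, -0.12 to 0.56, adjusted p = 0.453), and by -0.0029 (-0.21 to 0.20, adjusted p = 0.986) without both replicate 1 arrays.

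The members comprised those with the same sign at all 3 replicate numbers (Klf2, Klf4, Klf6 and Klf9, all higher after ionomycin) and those with mixed signs (the other 5). Groups that do not overlap must give the same sign at every number, so for these genes the sign is not a separate result. The labels do not say whether arrays of the same number belong together. Intervals of the mixed members reached 0.56 upwards (Klf13) and -0.74 downwards (Klf7) on the log2 scale, so differences up to those sizes lie within the intervals that 3 arrays per group give. A permutation of single genes cannot pass here: the smallest two-sided exact p of 3 arrays against 3 is 0.1. Klf2, Klf4, Klf6 and Klf9 each had it in the deposited values (exact permutation test), as groups that do not overlap must. After centring every array on its median, it was 0.6 for Klf2 and 0.3 for Klf9 and stayed at 0.1 for Klf4 and Klf6 (exact permutation test). The median difference of the 9 members was 0.22, against 0.05 over all genes.

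**Figure D3:**
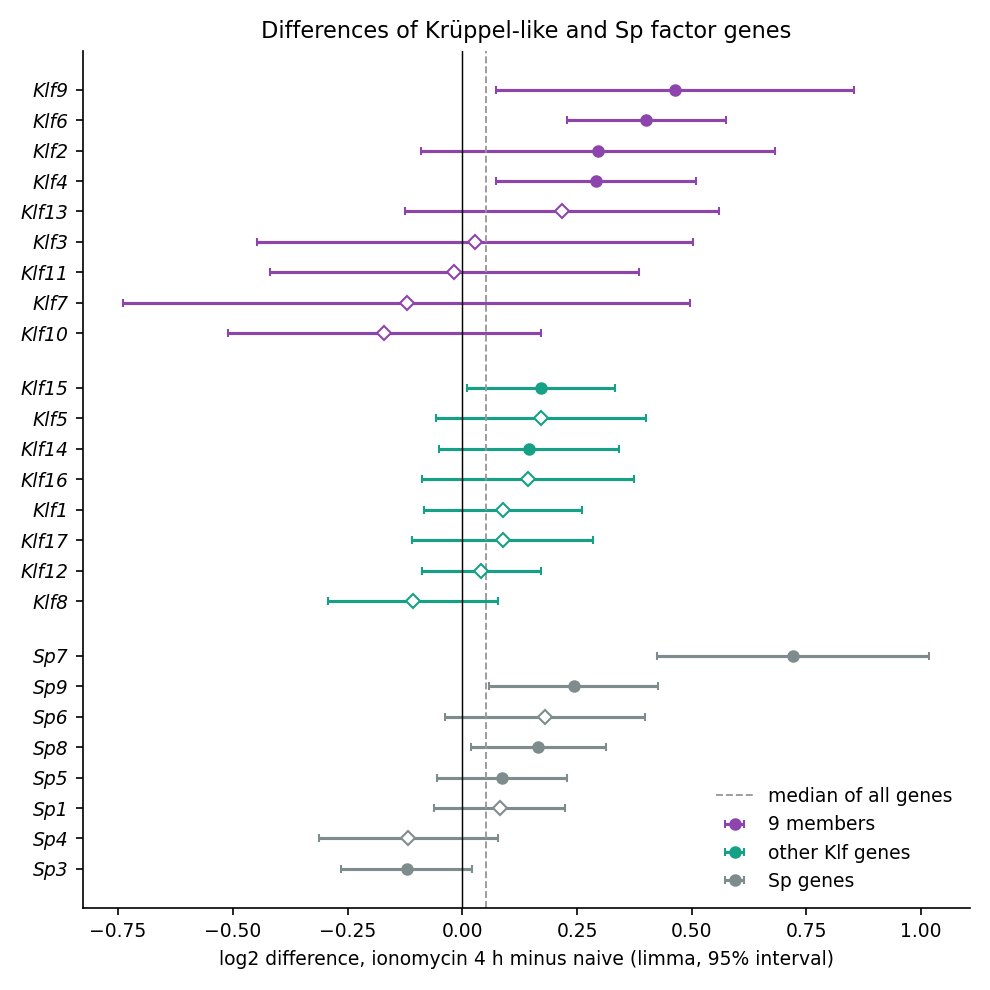
Log2 difference, ionomycin 4 h minus naive (x axis), with limma 95% intervals for the 9 genes, the other 8 Krüppel-like factor genes and 8 Sp genes (y axis), with filled circles where the groups of arrays do not overlap, open diamonds where they do, and a dashed line at the median of all genes (0.05). The members run from -0.17 (Klf10) to 0.46 (Klf9), the other Krüppel-like genes from -0.11 (Klf8) to 0.17 (Klf15), and the Sp genes from -0.12 (Sp3) to 0.72 (Sp7).

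Of the other 8 Krüppel-like factor genes 0 passed in limma, before adjustment 1 had a p under 0.05 (higher), and their median difference was 0.12. Those with the highest signal were Klf15, a glucocorticoid-responsive metabolic regulator (8.86, 8.86 and 8.95 in ionomycin arrays, 8.63, 8.76 and 8.77 in naive arrays, log2 difference 0.17, limma adjusted p = 0.303), and Klf16, a SIN3A-binding member (0.14, adjusted p = 0.461). Klf12 was below background. Of 8 measured Sp genes 0 passed, before adjustment 3 had a p under 0.05 (all higher), and the median was 0.13. Sp1 and Sp3, the ubiquitous factors that share GC boxes with this family, differed by 0.08 and -0.12 (limma adjusted p = 0.497 and 0.355). Sp7, the osteoblast factor osterix, was chosen here after its values were seen. It had 7.04, 6.70 and 6.82 in ionomycin arrays, against 6.01, 6.33 and 6.06 in naive arrays (0.72 ± 0.12 SE, limma adjusted p = 0.0907). Its naive mean of 6.13 was near the background level of 6.05.

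Genes of the factors' partners and pathways were also counted. Of 12 measured corepressor and coactivator genes 0 passed in limma, before adjustment 3 had a p under 0.05 (all lower), with a median of -0.14. Those 3, named here after their values were seen, were Ep300, Sin3a and Kat2b. They differed by -0.46, -0.37 and -0.24 (limma adjusted p = 0.0731, 0.253 and 0.296). Of the 12, the deacetylase gene Hdac1 differed by -0.02 and the acetyltransferase gene Crebbp by -0.23 (limma adjusted p = 0.971 and 0.463). Of 12 genes of the ERK5 and MEF2 cascade and of ubiquitin ligases that act on the family 0 passed, before adjustment 2 had a p under 0.05 (both lower), with a median of -0.08. Those 2, also named after their values were seen, were Fbxw7 (-0.44, limma adjusted p = 0.165) and Mef2d (-0.27, adjusted p = 0.318). The ligase genes Wwp1 and Smurf1 differed by -0.0073 and -0.21 (limma adjusted p = 0.979 and 0.540).

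Of 18 measured genes with textbook links to a Krüppel-like factor as targets 0 passed in limma, before adjustment 5 had a p under 0.05 (3 higher, 2 lower), and the median was 0.17. Cdkn1a, a cell cycle inhibitor gene activated by KLF4 and KLF6 in other cells, differed by 0.18 (limma adjusted p = 0.633), and Tgfb1 by 0.10 (adjusted p = 0.650). Ccl5 was chosen after its values were seen, as the known target of KLF13. It had 8.50, 8.26 and 8.41 in ionomycin arrays, against 7.62, 7.93 and 7.62 in naive arrays (0.67, limma adjusted p = 0.0844). Of 18 genes of the TGFβ and SMAD pathway 0 passed, before adjustment 7 had a p under 0.05 (3 higher, 4 lower), and the median was 0.08. The receptor gene Tgfbr1 had 10.67, 11.03 and 11.11 in ionomycin arrays, against 11.23, 11.76 and 11.95 in naive arrays (-0.71, limma adjusted p = 0.230). Tgfbr2, chosen after its values were seen, differed by -0.75 (limma adjusted p = 0.112). Of 10 glucocorticoid-linked genes 0 passed, before adjustment 1 had a p under 0.05 (higher), and the median was 0.06. That gene was Errfi1, a feedback inhibitor of the EGF receptor, at 10.16, 10.34 and 10.49 in ionomycin arrays, against 8.17, 8.90 and 9.09 in naive arrays (1.61 ± 0.24 SE, limma adjusted p = 0.0731, and 0.0383 in the blocked fit).

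Genes with the array pattern most like a member were looked for among 2141 named genes. These had a 6-array mean above background and a 6-array SD of at least 0.3. Likeness was Pearson's r of log2 signals over the 6 arrays, for the 3 members with the largest difference. With 2 groups and a replicate that stands apart shared by all genes, high values of r are common, and they are given as a description. The genes were chosen by likeness to members whose groups do not overlap, so their differences follow partly from that choice. Their p-values are not separate support. Those most like Klf6 were the chemokine gene Ccl2 (r = 0.999), Nfkbid, a nuclear IkB gene (0.998), and Jun, an AP-1 subunit (0.994). Their own differences were 1.23, 1.87 and 1.40 (limma adjusted p = 0.0610, 0.0626 and 0.0242), so Jun was higher past the threshold without the replicate number as a block, and all 3 were with it (adjusted p = 0.0105, 0.00898 and 0.0105). Those most like Klf9 were Tagap, a gene of activated T cells (r = 0.997), Serpina3f (0.993) and Rnu3b1, a U3 small nucleolar RNA gene (0.991), with differences of 0.72, 0.65 and 0.85 (limma adjusted p = 0.275, 0.325 and 0.217). In the fit with replicate numbers as a block Tagap passed (limma adjusted p = 0.0372). Those most like Klf2 were the phosphatase gene Dusp18 (r = 0.996), the adenosine deaminase gene Ada (0.984) and Peli1, a ubiquitin ligase gene (0.977), with differences of 0.46, 0.37 and 0.44 (limma adjusted p = 0.369, 0.406 and 0.309).

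**Figure D4:**
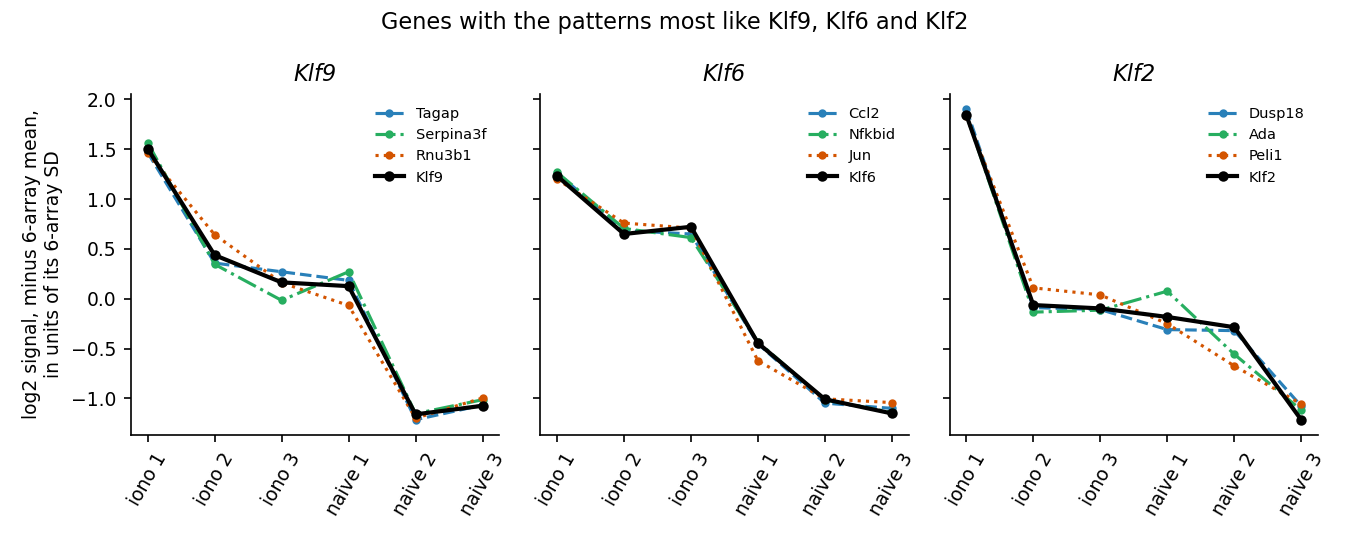
Log2 signal of Klf9, Klf6 and Klf2 (thick line) and of the 3 genes most like each (thin lines) in the 6 arrays (x axis), shown as the distance from a gene's own 6-array mean in units of its SD (y axis). Klf6 and its companions are high in the 3 ionomycin arrays, Klf9 and its companions have naive replicate 1 near ionomycin replicates 2 and 3, and Klf2 and its companions are highest in ionomycin replicate 1.

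Members differed in how alike their patterns were over the 6 arrays, which share the groups and the replicate 1 offset. Pearson's r was 0.921 for Klf6 with Klf9, 0.869 for Klf2 with Klf9 and 0.853 for Klf4 with Klf6. The CtBP-linked Klf3 and the SIN3A-linked Klf11, both highest in naive replicate 1, had r = 0.925 with each other. The paralogs Klf10 and Klf11 had r = -0.626, and Klf10 with Klf3 had -0.794.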

How the data were processed

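Total RNA of 6 arrays, 3 ionomycin and 3 naive, was measured. The values are log2 signals deposited by the authors, made with the R package oligo per the submitters' processing notes; the sources used here do not give its version, the summarization, the scaling between arrays or the build. The log2 scale was read from the values. Of 65770 rows, 30439 had 1 symbol, 2146 several (not named here) and 33185 none. By Entrez ID, 827 symbols were brought up to date with RefSeq (GRCm38.p6), and the row with the highest mean was kept per gene (30102 genes). Groups and replicate numbers come from the titles.

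Ionomycin minus naive was tested over all genes with lmFit and eBayes of limma 3.58.1 in R 4.3.3, two-sided, without a block, with Benjamini-Hochberg adjustment and a threshold of 0.05. The fit was tested on simulated data. Deviations of arrays with the same number from their group means correlated at 0.711, 0.476 and 0.469, all above 0.1, so a fit with the number as a block was also made. The deviations within a group of 3 cancel out, so an offset of replicate 1 in both groups also raises the values for numbers 2 and 3. Arrays of different numbers were not compared, so these correlations do not show that arrays were paired by number. Some macrophage markers, such as Csf1r and Mrc1, were lowest in replicate 3 of both groups. Whether that reflects pairing was not tested. Alternatives were that block, a block of 2 levels, other scalings, a background filter, other limma settings, other handling of rows, and left-out arrays. The members and lists were chosen with earlier results of these data known. All 9 members are named, then list members past the threshold in either fit or else the 2 with the highest signal, and the 3 genes most like each of 3 members (6-array SD at least 0.3). Exceptions are marked. The number of arrays limits the precision.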

Additional observations from a re-analysis of the deposited data

How the results depend on the processing

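With the replicate number as a block, 0 of 9 members passed, with limma adjusted p = 0.0674 for Klf6 and 0.0614 for Klf9, and 1 glucocorticoid-linked gene passed, against 0 without the block; the block moved no other call among the members and lists, and called 152 genes in all, against 105. Only 3 alternatives called members, and each called 2, Klf6 and Klf9. Their differences were 0.40 and 0.46 with the block of 2 levels and 0.40 and 0.50 with array weights. Without both replicate 1 arrays they were 0.41 and 0.47. These alternatives draw on the same arrays and are not separate support. All genes called were 1421, 3894 and 852 of 30102 in that order, with 677, 2240 and 423 of them higher. List counts in those 3 settings were 1, 3 and 0 for Sp genes, 1, 3 and 0 for corepressors, 1, 1 and 0 for the ERK5 cascade, 3, 6 and 3 for targets, 2, 6 and 1 for the TGFβ pathway and 1, 2 and 2 for glucocorticoid-linked genes.

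Without 1 array, all genes called ranged from 1 (without ionomycin replicate 2) to 150, with 35, 7, 13 and 9 without ionomycin replicates 1 and 3 and naive replicates 2 and 3. Members called stayed at 0 in all 6 such fits, and targets and glucocorticoid-linked genes ranged from 0 to 1 each (1 without naive replicate 1). Klf3 turned to -0.039 after centring (exact permutation p = 1), and ranged from -0.12 to 0.25 without 1 array. Klf11 turned to 0.18 with array weights and 0.19 without both replicate 1 arrays, and ranged from -0.12 to 0.18 without 1 array. Klf13 turned to -0.0029 without both replicate 1 arrays. Klf7 ranged from -0.43 to 0.061 without 1 array. Klf2, Klf4, Klf6, Klf9 and Klf10 kept their direction in all 16 alternatives. After centring, Klf2 and Klf9 overlapped between the groups, leaving 2 members that did not, against 22.3% of all genes; the median difference of all genes was then -0.01.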
